A study of Bos taurus and Ovis aries and Capra hircus with 27 samples.

Results

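The goat annotation used for these data listed 1298 gene models whose identifiers end in a copy suffix, that is, -D followed by a number. They are called copies here. The members were all such models in the goat expression table of 22131 models, apart from the 1 copy of a single identifier that was left out. The model with the same identifier and no suffix is called the first model. It was listed for 352 copies, which gave 352 pairs with 215 first models. The other 946 copies carried a suffix although no first model was listed. The 1298 copies belonged to 988 identifiers, of which 850 had 1 copy listed and 138 had 2 or more. By their prefixes, 706 copies carried identifiers of cattle proteins and 592 carried identifiers of human proteins.

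The series analysed here holds messenger RNA of 3 tissues of cattle, goat and sheep in 27 libraries and is a part of a larger study. The copies were measured in the 9 goat libraries, 3 each from heart, liver and kidney of indigenous goats about 3 years old, and the study's methods describe the goats as unrelated adult females. The cattle and sheep tables held 0 models with such a suffix. Values are FPKM, that is, sequenced fragments relative to transcript length and to all fragments mapped, a level that takes the length of a model into account. How well it does so for very short models was not tested.

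Gene copies arise when a stretch of chromosome is duplicated in place, which leaves neighbouring genes with similar sequence, or when a messenger RNA is copied back into the genome, which leaves a copy without introns. Families known for many copies in mammals include olfactory receptors, which detect odours in the nose, histones, which package DNA, and zinc finger proteins, which bind DNA. Copies can be expressed in the same tissues as the original gene, in other tissues or nowhere, and a predicted copy may also be a gene remnant or a fault of the assembly.

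The files pair no identifier with a gene name, so models are given by identifier, with a protein family where a script found the signature of that family in the deposited goat protein. For the same reason the tissue labels could not be checked against marker genes. The files hold no counts, so the depth behind each value is unknown. Summed FPKM ranged from 574638 to 828807 per goat library and was highest in heart. A value of 0 can be a failed estimate, so models are said to be listed at 0. The p-values measure the spread between 3 libraries per tissue. The 3 heart columns were matched to their samples by tissue and number, and the study's methods say that the goat heart data were also part of another deposit.

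Proteins with positions were available for 1076 of the 1298 copies (82.9%). Copies lay close to their first models. Of the 286 pairs in which both models had a protein, 284 were on the same scaffold. The median distance between the models of such a pair was 59632 bp (quartiles 20361 and 153971 bp), and 188 pairs lay within 100000 bp. Of the 116 identifiers with 2 or more positioned copies, 112 had all of them on 1 scaffold. Coordinates are those of the deposited goat protein file, and CHIR_1.0 is the goat build that the study names.

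The proteins of most pairs were not close in sequence. Median amino acid identity between copy and first model was 63.8% (quartiles 49.8% and 81.7%). In 23 pairs it was 95% or more, and in 6 pairs the proteins were identical. Over all copies, 120 had at least 1 other goat protein with 95% or more identity over 80% or more of the shorter protein. Reads from such models can be split between them, and their values are uncertain for that reason.

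Many copies had a coding region without introns, that is, a span on the scaffold at most 3 bp longer than the coding length. This held for 557 of 1076 copies (51.8%) and for 13.1% of 17138 models that were not copies. Olfactory and other receptors of the rhodopsin family and histones, whose genes commonly lack coding introns, made up most of them. Outside these families 129 of 610 copies (21.1%) had no intron, against 11.9% of 16701 other models. Intron structure was mostly shared within pairs. Both models lacked introns in 164 pairs and both had them in 113. The copy alone lacked introns in 1 pair and the first model alone in 8. That single pair was GOAT_ENSBTAP00000049265-D5 and its first model, both with an olfactory receptor signature and both listed at 0 in all 9 libraries.

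Olfactory receptors were by far the most frequent family. The signature was found in 398 copies, 37.0% of the copies with a protein, and copies made up 62.2% of the 640 goat models that carried it. They were spread over 51 scaffolds, with 39 on scaffold 1083. Of the 398, 370 were listed at 0 in all 9 libraries and 1 exceeded 0.5 FPKM in at least 3 libraries. That copy, GOAT_ENSBTAP00000004091-D6, reached 1.47, 1.31 and 0.322 FPKM in kidney, and its highest value in another tissue was 0.511 in liver. Other families with at least 8 copies were other rhodopsin-type receptors (36), C2H2 zinc fingers (32), histones (32), aspartic proteases (24), cadherins (14), aldo-keto reductases (11), antigen receptor variable domains (9) and cytochromes P450 (9). No signature was found in 457 copies.

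**Figure D1:**
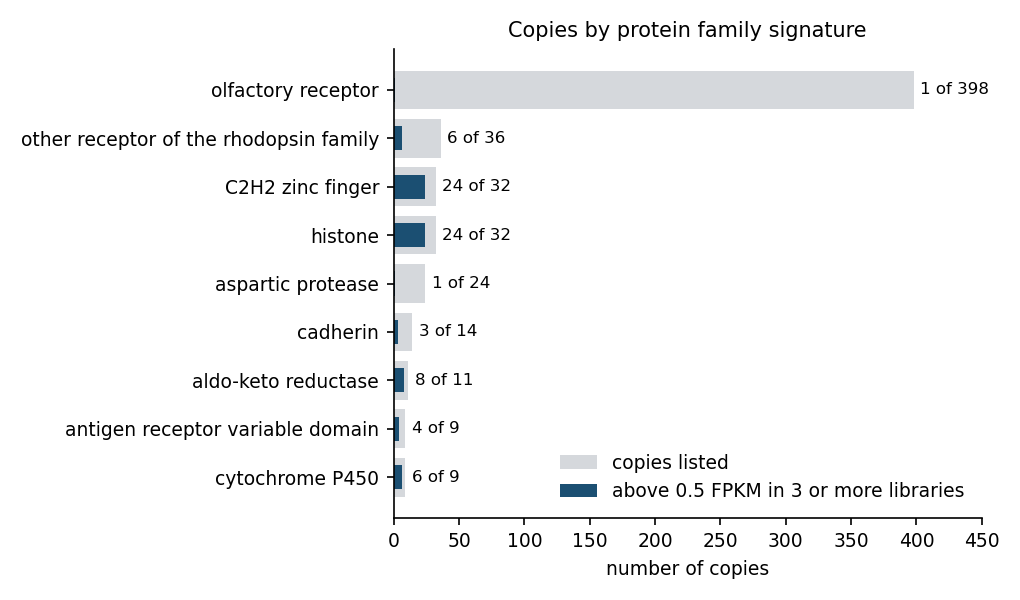
Number of copies by protein family signature (horizontal axis, number of copies) for families with at least 8 copies, with all listed copies in grey and those above 0.5 FPKM in 3 or more of the 9 goat libraries in blue. Olfactory receptors had 398 copies with 1 above this level, whereas 24 of 32 histone copies and 24 of 32 C2H2 zinc finger copies passed it.

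Most copies were listed at 0 throughout heart, liver and kidney. Of the 1298 copies, 727 (56.0%) were listed at 0 in all 9 libraries, against 19.8% of the models that were not copies. A further 126 copies had values above 0 that never exceeded 0.5 FPKM. At least 1 library exceeded 0.5 FPKM for 445 copies, and all 9 did for 167 (12.9%, against 45.5% of other models). The copies above 0.5 FPKM in 3 or more libraries, the level required for testing, numbered 374 of 1298 (28.8%). Among other models 63.6% passed. The share that passed was similar for copies with a listed first model (27.8%) and without one (29.2%). It was 49.1% of the 487 copies with suffix number 2 and 8.39% of the 274 copies with numbers above 10, of which 151 carried the olfactory receptor signature.

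The share of copies above 0.5 FPKM was 18.8%, 20.1% and 19.3% in the heart libraries, 21.0%, 20.6% and 22.1% in liver and 27.5%, 25.7% and 24.96% in kidney. The means were 19.4% ± 0.66 in heart, 21.2% ± 0.79 in liver and 26.0% ± 1.31 in kidney (SD, n = 3). No libraries of different tissues overlapped. Kidney exceeded heart by 6.63 and liver by 4.80 percentage points, and liver exceeded heart by 1.82 points. In each of the 3 comparisons the 2-sided exact permutation test gave p = 0.1, the smallest that 3 libraries against 3 allow, so a threshold of 0.05 could not be reached. Models that were not copies had 55.4% ± 0.45 in heart, 54.8% ± 0.12 in liver and 59.7% ± 0.66 in kidney, so kidney was highest there too, while heart and liver overlapped (exact permutation p = 0.2).

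**Figure D2:**
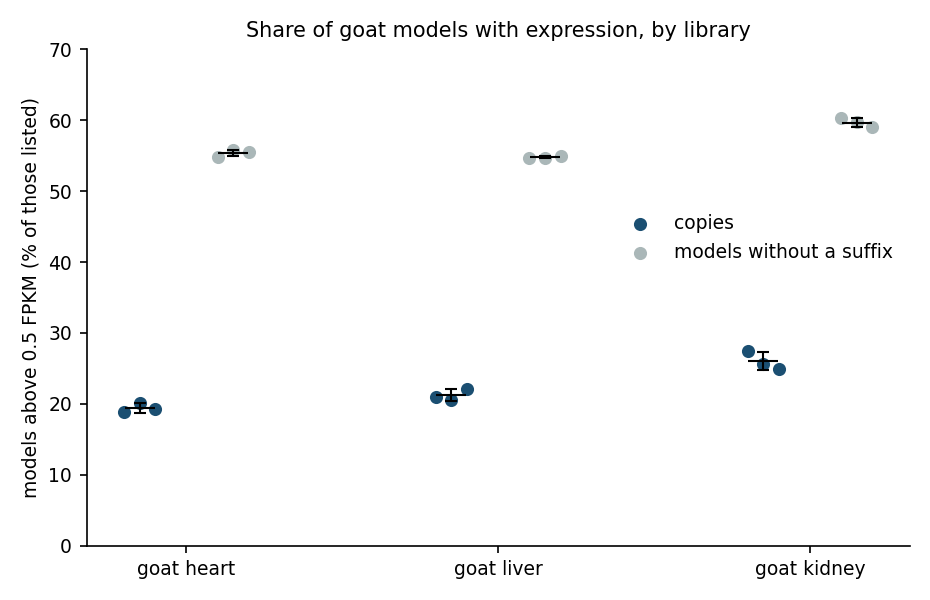
Share of listed goat models above 0.5 FPKM (vertical axis, %) in each library of heart, liver and kidney, for copies (blue) and for models that are not copies (grey). Points are libraries and the black line and bars are the mean and SD of 3. Copies lie between 18.8% and 27.5%, with kidney highest, and other models between 54.7% and 60.3%.

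A few copies held most of the signal. Copies took 2.59% to 3.12% of summed FPKM in heart, 3.36% to 4.54% in liver and 2.59% to 3.12% in kidney. The means were 2.84% ± 0.26, 3.86% ± 0.61 and 2.79% ± 0.29 (SD, n = 3). Liver overlapped with neither heart nor kidney (exact permutation p = 0.1 in both comparisons), and heart and kidney overlapped (p = 0.9). The 10 copies with the highest mean FPKM held 71.1% of all copy FPKM over the 9 libraries, and from 49.4% to 83.6% in single libraries.

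The most abundant copy was GOAT_ENSBTAP00000053003-D5, a model of 76 residues without introns on scaffold 609 (836238 to 836465, plus strand) with the signature of ubiquitin, the small protein that tags other proteins for breakdown. It reached 6169, 11284 and 9315 FPKM in heart, 2146, 2917 and 3113 in liver and 2261, 4534 and 7271 in kidney. Heart lay above liver in every library and overlapped with kidney. Its log2 difference between heart and liver was 1.69 ± 0.42 (SE, limma adjusted p = 0.0082), a call that was lost with quantile normalization. Between heart and kidney it was 1.04 ± 0.42 (limma adjusted p = 0.054, and 0.029 with the replicate number as a block). Another listed goat model matched its protein at 100% identity over the aligned part, so the reads behind these values may belong to either. Without this copy the share of summed FPKM in copies fell to 1.75% in heart.

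A pair of copies with signatures of ribosomal proteins, components of the machinery that makes proteins, followed among the most abundant. GOAT_ENSBTAP00000001791-D2, with the ribosomal protein S12 signature, had 1676, 1616 and 1627 FPKM in heart, 1010, 615 and 833 in liver and 3847, 1661 and 1201 in kidney. Kidney was higher than liver, with a log2 difference of liver minus kidney of −1.296 ± 0.393 (SE, limma adjusted p = 0.016). That call was lost with median ratio scaling and without liver replicate 2. Heart minus liver was 1.03 ± 0.39 on the same scale (limma adjusted p = 0.055, and 0.036 with the replicate block). GOAT_ENSBTAP00000015875-D2, with the ribosomal protein S19 signature, had 1513, 1649 and 1686 FPKM in heart, 980, 811 and 1236 in liver and 3056, 1640 and 1066 in kidney, and passed the test in none of the 3 comparisons.

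Differences between tissues were tested with limma over all 13634 goat models above 0.5 FPKM in 3 or more libraries, of which 374 were copies. Between heart and liver, 156 copies passed an adjusted p of 0.05, which is 41.7% of the tested copies, and the background was 49.2% of all models tested. Of these copies 79 were higher in heart (21.1% of tested copies, background 29.6%) and 77 in liver (20.6%, background 19.6%). Between heart and kidney 230 copies passed, 61.5% of those tested against a background of 63.2%. Of them 51 were higher in heart (13.6%, background 17.9%) and 179 in kidney (47.9%, background 45.3%). Between liver and kidney 265 copies passed, 70.9% of those tested against a background of 65%, with 68 higher in liver (18.2%, background 13.4%) and 197 in kidney (52.7%, background 51.6%). Some tested copies exceeded 0.5 FPKM in libraries of 1 tissue only, 5 in heart, 31 in liver and 33 in kidney, so that their choice favours a difference. Copies that needed 1 tissue to pass but had a value above 0.5 FPKM elsewhere are not in these numbers. The other 924 copies did not reach the level for testing. As a share of listed models, calls between heart and liver made up 12.02% of copies and 31.5% of models that were not copies.

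The balance between kidney and the other tissues moved with the scaling. Over all models the median log2 difference was −0.55 between heart and kidney and −0.69 between liver and kidney with deposited values, and −0.08 and −0.06 with median ratio scaling. Copies higher in heart then made up 35.1% of 208 calls against kidney in place of 22.2%, and copies higher in liver 40.7% of 216 calls in place of 25.7%. Over all models tested these shares moved likewise, to 48.03% in place of 28.3% and to 48.01% in place of 20.6%. Between heart and liver, copies higher in heart made up 50.6% of calls with deposited values and 36.2% when all libraries were set to the same sum of FPKM, and over all models 60.2% and 41.0%.

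Copies called higher in one tissue than in both others numbered 35 in heart, 58 in liver and 147 in kidney. These were 9.36%, 15.5% and 39.3% of the copies tested, and the background over all models tested was 14.5%, 9.59% and 34.2%. The copies tested include 5 that exceeded 0.5 FPKM in heart only, 31 in liver only and 33 in kidney only. Such copies were tested for their values in that tissue, a choice that favours a difference. It also affected copies that passed only through 1 tissue but had a value above 0.5 FPKM elsewhere, which these numbers leave out. The counts are therefore not read as an excess over the background. With median ratio scaling the 3 counts were 49, 64 and 94, and no background is given for that scaling. The copies named next for each tissue, those with the largest smaller difference from the other tissues, were called under every alternative that gave a value. The study's filter (above 0.5 FPKM in over 80% of libraries) gave a value for GOAT_ENSBTAP00000002933-D2 and GOAT_ENSBTAP00000053370-D2 only. The other named copies were not tested under it.

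In heart, the largest difference belonged to GOAT_ENSBTAP00000011047-D2, a model of 199 residues on scaffold 1497 (2531035 to 2536256, plus strand) in which no signature was found. It reached 5221, 2745 and 2455 FPKM in heart, 0.230, 0 and 0.352 in liver and 7.82, 0.321 and 0.122 in kidney. Every heart library was far above every other library. The log2(FPKM + 1) difference was 11.43 ± 0.69 from liver (limma adjusted p = 8.5e-07) and 10.44 ± 0.69 from kidney (adjusted p = 1.9e-06). Outside heart this copy exceeded 0.5 FPKM in kidney replicate 1 only. It was thus tested for its heart values, a choice that favours a difference.

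The next heart copy, GOAT_ENSP00000256404-D2, had 104, 62.6 and 48.1 FPKM in heart. In liver it had 0, 0.162 and 0, and every kidney library listed it at 0. It thus exceeded 0.5 FPKM in heart only and was tested for its heart values. GOAT_ENSBTAP00000002933-D2 had 80.1, 113 and 156 FPKM in heart, 0.546, 0.827 and 0.183 in liver and 4.50, 3.02 and 2.12 in kidney. Heart did not overlap with the other tissues in either copy. GOAT_ENSBTAP00000053370-D2 had 34.2, 60.2 and 67.0 FPKM in heart and at most 2.06 elsewhere, a log2 difference of 4.41 ± 0.29 from liver (limma adjusted p = 1.8e-06) and 4.35 ± 0.29 from kidney (adjusted p = 2.3e-06).

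In liver, the leading copy carried the signature of serpins, protease inhibitors that the liver secretes in quantity into the blood. GOAT_ENSBTAP00000009261-D2 lay on scaffold 1665 (17933 to 24231, plus strand), 35497 bp from its first model, with 71.7% identity to it. The copy reached 3787, 4643 and 5076 FPKM in liver, 0, 0.0563 and 0 in heart and 3.74, 2.76 and 0.857 in kidney. The first model reached 202, 654 and 544 FPKM in liver, was listed at 0 in all heart libraries and had 0.236 to 0.364 in kidney. Both models were thus highest in liver, without overlap, and the copy was above the first model in every liver library. The copy differed between liver and kidney by 10.44 ± 0.32 on the log2 scale (limma adjusted p = 2.2e-08), and the first model by 8.32 ± 0.38 (adjusted p = 2.2e-07). The first model exceeded 0.5 FPKM in liver only and so was tested for its liver values, a choice that favours a difference.

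GOAT_ENSP00000278222-D4 carried the signature of serum amyloid A, a plasma protein that the liver makes in the acute phase of inflammation. It had 364, 9784 and 3596 FPKM in liver and at most 4.02 elsewhere. The spread between the liver libraries was wide, with replicate 1 lowest, and all 3 were above all other libraries. The log2 difference from kidney was 9.74 ± 0.98 (limma adjusted p = 3.1e-05).

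A pair of copies of one identifier completed the liver group. GOAT_ENSP00000222002-D3 had 303, 609 and 1255 FPKM in liver and GOAT_ENSP00000222002-D2 had 578, 227 and 312. Both were listed at 0 in all heart libraries and did not exceed 0.775 FPKM in kidney. They were higher in liver than in kidney by 8.89 ± 0.42 and 7.94 ± 0.32 on the log2 scale (limma adjusted p = 2.6e-07 and 1.1e-07). Copy -D3 exceeded 0.5 FPKM in liver only, and copy -D2 exceeded it outside liver in kidney replicate 2 only. Both were thus tested for their liver values, a choice that favours a difference. No protein was available for either copy.

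In kidney, GOAT_ENSBTAP00000052627-D9 had 145, 436 and 169 FPKM, was listed at 0 in all heart libraries and had 1.47, 0.453 and 0.482 in liver. The log2 difference of liver minus kidney was −6.99 ± 0.39 (limma adjusted p = 7.6e-07). Outside kidney this copy exceeded 0.5 FPKM in liver replicate 1 only. It was thus tested for its kidney values, a choice that favours a difference. GOAT_ENSP00000374854-D2 had 295, 231 and 43.8 FPKM in kidney and at most 1.28 elsewhere. No protein was available for these copies, and kidney did not overlap with the other tissues in either.

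GOAT_ENSP00000374869-D2, the third kidney copy, carried the signature of an antigen receptor variable domain, the part of antibodies and T cell receptors that binds antigen. It had 93.4, 40.3 and 67.5 FPKM in kidney and at most 1.25 in heart and liver. Outside kidney it exceeded 0.5 FPKM in heart replicate 2 and liver replicate 1 only, so it too was tested for its kidney values. Of 9 listed copies with this signature 4 were tested, and 2 of these exceeded 0.5 FPKM in kidney only and so were tested for their kidney values. The other 3 tested had between 1.36 and 5.72 FPKM in kidney and at most 0.640 elsewhere. Antigen receptors are made by lymphocytes, and in bulk tissue more cells of a type and more RNA per cell cannot be told apart. The amount of immune cells in these libraries was not tested, since markers could not be found by name. GOAT_ENSBTAP00000046787-D2 had 156, 29.9 and 15.1 FPKM in kidney, and its first model 46.3, 9.28 and 22.8, and both were at or below 0.386 elsewhere. Both were thus tested for their kidney values.

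Of 11 copies with the signature of aldo-keto reductases, enzymes that reduce carbonyl compounds such as steroids and sugars, 8 were tested. Of these, 4 exceeded 0.5 FPKM in liver only, so that the number called higher in liver is not read as a result. GOAT_ENSBTAP00000028488-D2 had 613, 224 and 116 FPKM in liver, 4.35 to 11.3 in heart and 4.30 to 12.8 in kidney. GOAT_ENSBTAP00000013082-D3 had its highest values in heart, with 179, 207 and 542 FPKM in heart, 58.7, 71.3 and 119 in kidney and 3.53, 4.89 and 8.72 in liver. Its heart values exceeded liver by 5.42 on the log2 scale (limma adjusted p = 1.0e-05). The aldo-keto reductase copies called higher in liver than in both other tissues numbered 7 (background 9.59%), including the 4 above 0.5 FPKM in liver only. In 6 of the 7 liver replicate 1 was the highest, and in 6 the liver libraries differed by more than 5-fold. The calls of GOAT_ENSBTAP00000030543-D3, with 74.0, 1.53 and 1.70 FPKM in liver, were lost when any single heart or kidney library was left out. For GOAT_ENSBTAP00000028488-D9 the call against heart was lost without heart replicate 1 or 2 and that against kidney without kidney replicate 2 or 3.

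Cytochromes P450 oxidise drugs, steroids and fatty acids and are abundant in liver. Of 9 copies with the signature 6 were tested, and 4 of these exceeded 0.5 FPKM in liver only. GOAT_ENSBTAP00000048143-D2 had 93.9, 115 and 27.6 FPKM in liver and GOAT_ENSBTAP00000036241-D2 had 23.8, 35.0 and 31.5. Both were listed at 0 in all heart libraries and did not exceed 0.191 in kidney. Both copies with the signature of flavin-containing monooxygenases, another class of drug-oxidising enzymes, were higher in liver than in heart and kidney. GOAT_ENSP00000236166-D2 had 391, 343 and 376 FPKM in liver, 5.90, 22.7 and 16.6 in heart and 0.570, 0.876 and 0.228 in kidney. GOAT_ENSBTAP00000049387-D2 had 198, 138 and 68.4 FPKM in liver, 6.21 to 19.9 in heart and 0.256 to 0.448 in kidney. Heart thus lay between liver and kidney in both, and the tissues did not overlap.

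Copies of the CD36 family, membrane receptors that take up fatty acids and lipoproteins, showed 3 tissue patterns on 1 scaffold. All 3 were on scaffold 950. GOAT_ENSP00000401863-D4 had 375, 483 and 429 FPKM in heart, 16.0, 19.03 and 14.2 in liver and 39.7, 153 and 91.1 in kidney. GOAT_ENSP00000401863-D3, a copy of the same identifier, had 0.154, 3.25 and 3.37 FPKM in heart, 509, 270 and 327 in liver and 3.36, 54.8 and 69.6 in kidney. The former was highest in heart and the latter in liver, without overlap. Between heart and liver the log2 difference was 4.63 for -D4 (limma adjusted p = 1.3e-05) and −7.01 for -D3 (adjusted p = 0.00026). GOAT_ENSBTAP00000018902-D3 had 20.2, 17.7 and 69.0 FPKM in kidney and at most 4.89 elsewhere.

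Reversals of this kind were counted between copies of one identifier. In 25 identifiers 2 or more copies were tested, which gave 88 comparisons of a copy with another copy. In 5 of them, from 3 identifiers, a contrast was called in opposite directions, and in 43 at least 1 contrast was called in the same direction and none in opposite ones. These comparisons share copies and are a description. GOAT_ENSP00000400651, with 9 tested copies, gave the most of them. No share over other models was computed, so the counts are not read as rare or frequent.

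Of 36 copies with signatures of other rhodopsin-type receptors 6 were tested, of which 2 exceeded 0.5 FPKM in kidney only. GOAT_ENSBTAP00000025880-D5 had 12.6, 29.2 and 25.1 FPKM in kidney, 0.803, 1.44 and 0.404 in heart and 1.33, 0.984 and 1.59 in liver. GOAT_ENSBTAP00000014989-D5 had 16.2, 13.1 and 12.5 FPKM in kidney and at most 0.582 elsewhere. The other 30 did not reach the level for testing, and 27 were listed at 0 in all 9 libraries.

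Histone copies formed a dense cluster. Of 32 copies with a histone signature 30 lay on scaffold 1146, 31 had no intron, and 28 had at least 1 near identical goat protein. Of the 24 tested, 11 were higher in kidney than in both other tissues (background 34.2%) and 1 was higher in liver (background 9.59%), and 3 exceeded 0.5 FPKM in kidney only. The number higher in kidney was 4 with median ratio scaling, 2 with quantile normalization and 14 with the replicate block. No background is given for these alternatives, and the scalings also moved the balance over all models tested. The most abundant, GOAT_ENSBTAP00000052035-D3 on scaffold 180 (17951 to 18112), had 445, 937 and 962 FPKM in heart, 488, 689 and 997 in liver and 165, 685 and 744 in kidney. It was the lowest in replicate 1 of each tissue and passed the test in no comparison. GOAT_ENSBTAP00000052749-D6, with the signature of histone H2B, had 2.71, 5.93 and 30.1 FPKM in heart, 6.77, 28.3 and 95.4 in liver and 10.7, 32.1 and 122 in kidney. The libraries numbered 3 had the highest value in each tissue and those numbered 1 the lowest. Between heart and liver the log2 difference was −1.59 ± 1.13 (limma adjusted p = 0.28, and 0.00031 with the replicate number as a block), and between heart and kidney it was −1.97 ± 1.13 (limma adjusted p = 0.16, and 8.3e-05 with the block).

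C2H2 zinc finger copies were low. Of 32 copies 24 were tested, their highest FPKM in any library was 10.98, and 3 of the 32 were listed at 0 in all libraries. Against liver, 20 were higher in kidney (background 51.6%) and 11 in heart (background 29.6%). The number higher in kidney than in both other tissues was 13 with deposited values (background 34.2%), 14 with the replicate block, 17 with equal sums, 3 with median ratio scaling and 2 with quantile normalization. No background is given for the alternatives, and the scalings also moved the balance over all models tested, so the change is not read as particular to this family.

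Among the 4 identifiers with the most copies, one stood out for expression in all of its copies. GOAT_ENSP00000400651 had 9 copies on scaffold 389 (461173 to 1257267) around its first model, and all 9 were tested. The signature of the KRAB box, a repressor domain found in many zinc finger proteins, was found in 3 of them and no signature in the other 6. Copy -D3 had 2.42, 4.51 and 3.73 FPKM in heart, 7.73, 5.71 and 11.4 in liver and 3.97, 6.14 and 5.18 in kidney. Copy -D2 had 4.50, 2.69 and 3.08 FPKM in heart, 0.572, 0.549 and 1.17 in liver and 2.14, 4.45 and 1.83 in kidney. Between heart and liver -D2 differed by 1.32 (limma adjusted p = 0.0036) and -D3 by −1.01 (adjusted p = 0.014, lost without heart replicate 1), that is, in opposite directions. Copy -D8 was called higher in heart than in liver by 0.53 (limma adjusted p = 0.022), lost without heart replicate 2, liver replicate 2 or liver replicate 3 and with median ratio scaling or equal sums. The first model had 1.48 to 2.48 FPKM in heart, 2.41 to 4.63 in liver and 2.78 to 10.2 in kidney, with liver minus kidney at −0.69 ± 0.38 on the log2 scale (limma adjusted p = 0.14, and 0.028 with the replicate block).

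**Figure D3:**
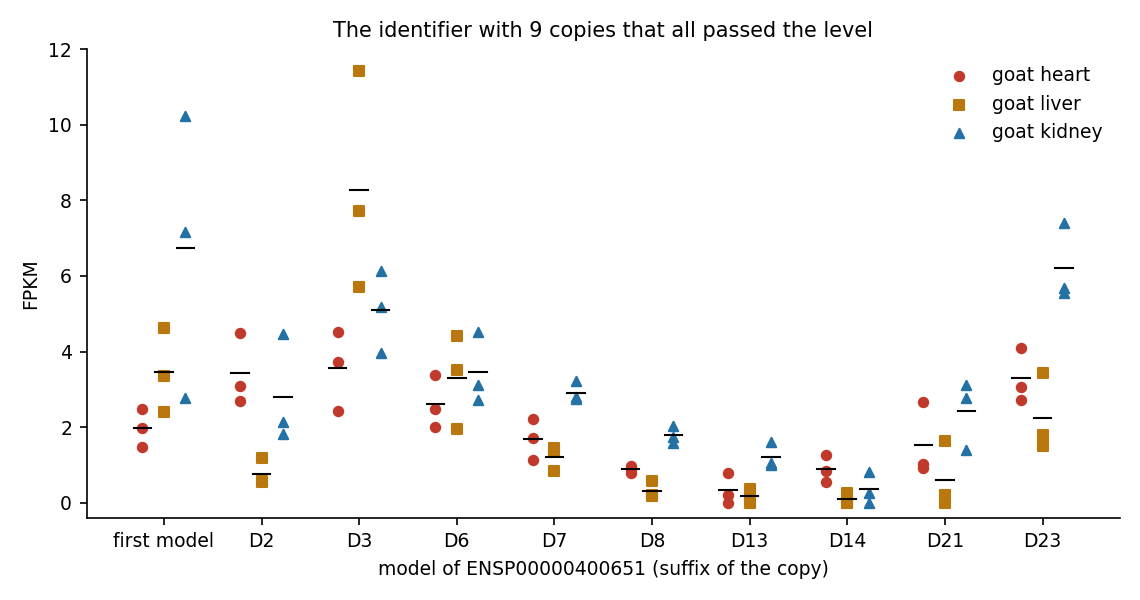
FPKM (vertical axis, linear scale) of the first model GOAT_ENSP00000400651 and its 9 copies in the 3 heart (circles), 3 liver (squares) and 3 kidney (triangles) libraries, with the mean of each tissue as a black line. Copy D3 has its highest mean in liver, at 5.71 to 11.4 FPKM, where copy D2 is at 0.549 to 1.17.

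The other 3 large groups were listed at 0 or low. GOAT_ENSP00000284287, with 18 copies that all carried the olfactory receptor signature, lay on scaffold 1083, and all 18 were listed at 0 in every library. GOAT_ENSBTAP00000030448 had 15 copies on 4 scaffolds, 14 of them with the aspartic protease signature, and all 15 were listed at 0. GOAT_ENSP00000367345 had 9 copies on scaffold 1356 (1941221 to 2092163), all with the signature of cadherins, proteins that hold neighbouring cells together. Copy -D21 was the only one tested, with 3.82 to 6.31 FPKM in heart, 3.32 to 6.22 in liver and 6.10 to 7.87 in kidney, whereas the other 8 did not exceed 0.781 FPKM in any library.

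Copies were compared directly with their first models in the 130 pairs (93 first models) in which at least 1 of the models exceeded 0.5 FPKM in 3 or more libraries. In 167 of the 352 pairs both models were listed at 0 in all 9 libraries. Both models passed in 83 pairs, the copy alone in 15 and the first model alone in 32. Over the 130 pairs the median log2(FPKM + 1) difference of copy minus first model was 0 in all 3 heart libraries, −0.37, −0.20 and −0.33 in liver and −0.36, −0.28 and −0.31 in kidney. Heart overlapped with neither liver nor kidney (exact permutation p = 0.1 in both comparisons), and liver and kidney overlapped (p = 0.9). In heart 32 to 38 of the 130 pairs had equal values, against 14 to 22 in liver and 2 to 8 in kidney. Over the 83 pairs with both models tested the median was 0, −0.06 and −0.25 in heart, −0.44, −0.56 and −0.60 in liver and −0.32, −0.29 and −0.29 in kidney. Over the 185 pairs with a value above 0 in either model it was 0 in every tissue.

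**Figure D4:**
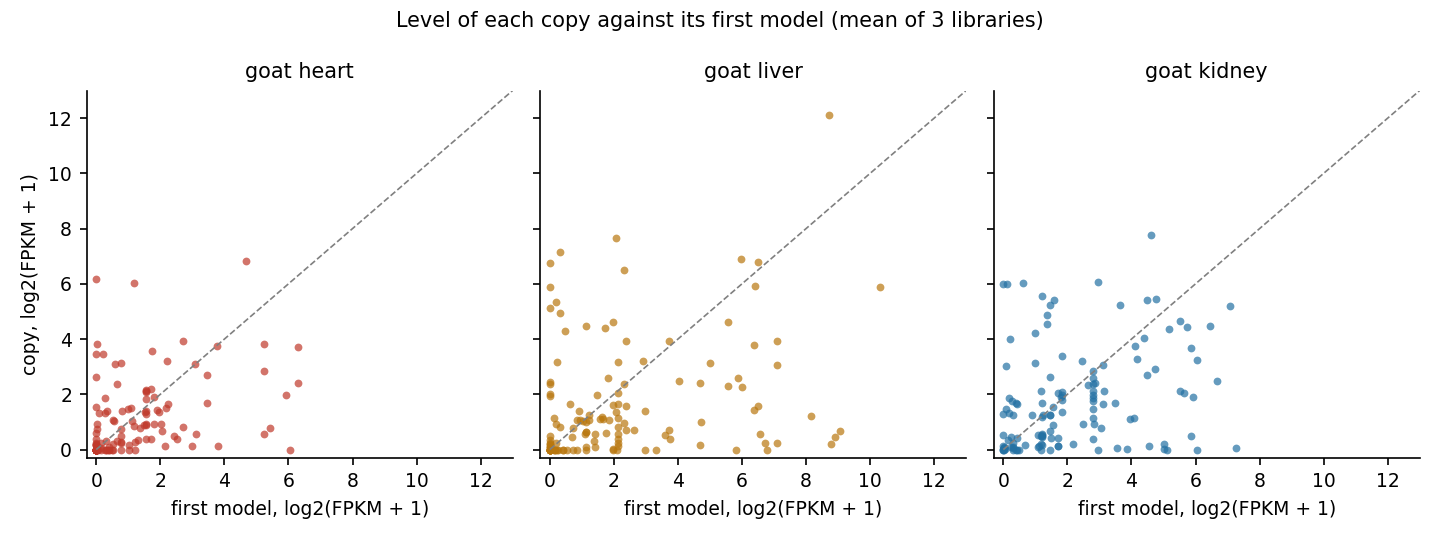
Level of each copy (vertical axis) against its first model (horizontal axis), both as the mean log2(FPKM + 1) of 3 libraries, for 130 pairs in heart, liver and kidney, with equality as a dashed line. Many pairs lie along the axes, where 1 model is near 0, and the highest copy in liver is the serpin copy GOAT_ENSBTAP00000009261-D2.

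The copy was above its first model in all 9 libraries in 13 pairs and below it in all 9 in 29 pairs, and 88 pairs were mixed. Among the 83 pairs with both models tested the copy was above in all 9 libraries in 7 and below in all 9 in 22. The copies with the largest smallest excess included GOAT_ENSP00000274764-D11, with the signature of histone H2B. It had 61.9, 70.3 and 84.5 FPKM in heart, 73.0, 113 and 149 in liver and 22.2, 101 and 112 in kidney, while its first model was listed at 0 in all 9. The copy had 13 near identical goat proteins, so its reads may belong to several models.

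GOAT_ENSP00000345023-D2 exceeded its first model, 7397 bp away with 64.9% identity, by 4.15 to 6.66 on the log2 scale. The copy had 60.7, 64.4 and 67.5 FPKM in heart, 273, 180 and 165 in liver and 37.7, 56.6 and 46.6 in kidney. The first model had 0.902 to 1.80, 1.71 to 4.88 and 1.18 to 1.39. Both were higher in liver than in heart (limma adjusted p = 0.00036 for the copy and 0.023 for the first model, the latter lost without heart replicate 1 or 2 or liver replicate 2 or 3).

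GOAT_ENSBTAP00000017305-D2, with the signature of G protein alpha subunits, which pass signals from receptors into the cell, exceeded its first model by 3.23 to 6.15. It had 8.37, 17.6 and 15.4 FPKM in heart, 35.5, 36.1 and 49.9 in liver and 49.8, 70.3 and 69.9 in kidney, and its first model at most 0.354. For the copy, liver minus kidney was −0.63 ± 0.29 on the log2 scale (limma adjusted p = 0.080, and 0.021 with the replicate block). GOAT_ENSBTAP00000018618-D2 exceeded its first model by 1.64 to 3.64, with 7.07, 17.5 and 9.78 FPKM in heart, 8.04, 7.54 and 8.73 in liver and 12.6, 20.3 and 20.8 in kidney. Its log2 difference of heart minus kidney was −0.66 ± 0.31 (limma adjusted p = 0.093, and 0.046 with the replicate block).

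In the opposite direction, GOAT_ENSBTAP00000026127-D3 lay below its first model in every library, with log2 differences from −8.63 to −3.44. The copy had 0.306 to 5.26 FPKM over the 9 libraries. The first model had 49.6, 44.6 and 34.1 in heart, 952, 345 and 454 in liver and 63.7, 107 and 149 in kidney. GOAT_ENSP00000358640-D2 also lay below its first model in every library, with differences from −7.31 to −3.14. The copy had 1.96, 4.13 and 0.713 FPKM in liver and was listed at 0 in heart and kidney, while the first model had 13.4 to 271 FPKM in every library.

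Of the 83 pairs with both models tested, 56 had their highest mean in the same tissue, which was kidney in 42, liver in 14 and heart in 0. Kidney was the tissue of the highest mean for 57 of the 83 copies, for 34 of their 63 first models and for 56.6% of all models tested, with deposited values. No test of sharing beyond this balance was made. Between liver and kidney both models were called in the same direction in 38 pairs and in opposite directions in 9. Between heart and kidney these numbers were 30 and 5, and between heart and liver 17 and 2. In all, 12 pairs had an opposite call in at least 1 comparison. The background percentages of calls given above apply to each model of a pair.

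GOAT_ENSBTAP00000002933 and its copy -D2 had opposite calls in all 3 comparisons. The copy, described above, had 80.1, 113 and 156 FPKM in heart and at most 4.50 elsewhere. The first model had 20.8, 22.7 and 30.5 FPKM in heart, 70.1, 80.2 and 143 in liver and 32.8, 51.4 and 68.5 in kidney. Heart was highest for the copy and lowest for the first model. Between heart and liver the log2 difference was 6.24 ± 0.31 for the copy (limma adjusted p = 2.0e-07) and −1.89 ± 0.34 for the first model (adjusted p = 0.0013). The first model's call between heart and kidney was lost without heart replicate 1 or 2 or kidney replicate 2 or 3 and with median ratio scaling or quantile normalization. That between liver and kidney was lost without heart replicate 2, liver replicate 2 or 3 or kidney replicate 1 or 2.

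GOAT_ENSBTAP00000022428-D2, on scaffold 1188 and 52602 bp from its first model with 46.5% identity, had 59.7, 34.8 and 33.7 FPKM in kidney and 0.0971 to 0.749 in liver. Its first model had 200, 684 and 785 FPKM in liver and 0.349, 1.12 and 8.39 in kidney. Between liver and kidney the log2 difference was −4.94 ± 0.47 for the copy (limma adjusted p = 2.2e-05) and 7.31 ± 0.71 for the first model (adjusted p = 2.4e-05). Outside liver the first model exceeded 0.5 FPKM in kidney replicates 2 and 3 only. It was thus tested for its liver values, a choice that favours a difference. No signature was found in these proteins of 455 and 481 residues.

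GOAT_ENSBTAP00000013230-D3 carried the cytochrome P450 signature, as did its first model, with 80.8% identity between them. The copy had 18.1, 26.6 and 23.9 FPKM in kidney and 4.00, 3.33 and 4.65 in liver, a log2 difference between liver and kidney of −2.25 ± 0.24 (limma adjusted p = 4.7e-05). The first model had 39.1, 42.5 and 61.6 FPKM in liver and 1.92, 1.82 and 1.09 in kidney, a difference of 4.21 ± 0.22 (limma adjusted p = 5.0e-07). Another copy between them on scaffold 118, -D2, had 18.5, 23.4 and 31.4 FPKM in liver and 13.7, 21.995 and 74.0 in kidney, which overlapped.

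GOAT_ENSBTAP00000024282-D2 had 3.91, 18.7 and 12.8 FPKM in heart, 39.3, 18.9 and 10.9 in liver and 0, 0.209 and 0.240 in kidney. Its first model had 0.109 to 0.239 in heart, 1.41 to 2.95 in liver and 5.52, 4.76 and 1.43 in kidney. Between heart and kidney the log2 difference was 3.26 ± 0.54 for the copy (limma adjusted p = 0.00065) and −1.95 ± 0.36 for the first model (adjusted p = 0.0012). The pair GOAT_ENSBTAP00000026127 and its copy -D3, given above, were called in opposite directions between liver and kidney, at 2.39 ± 0.41 for the first model (limma adjusted p = 0.00082) and −1.80 ± 0.30 for the copy (adjusted p = 0.00073).

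**Figure D5:**
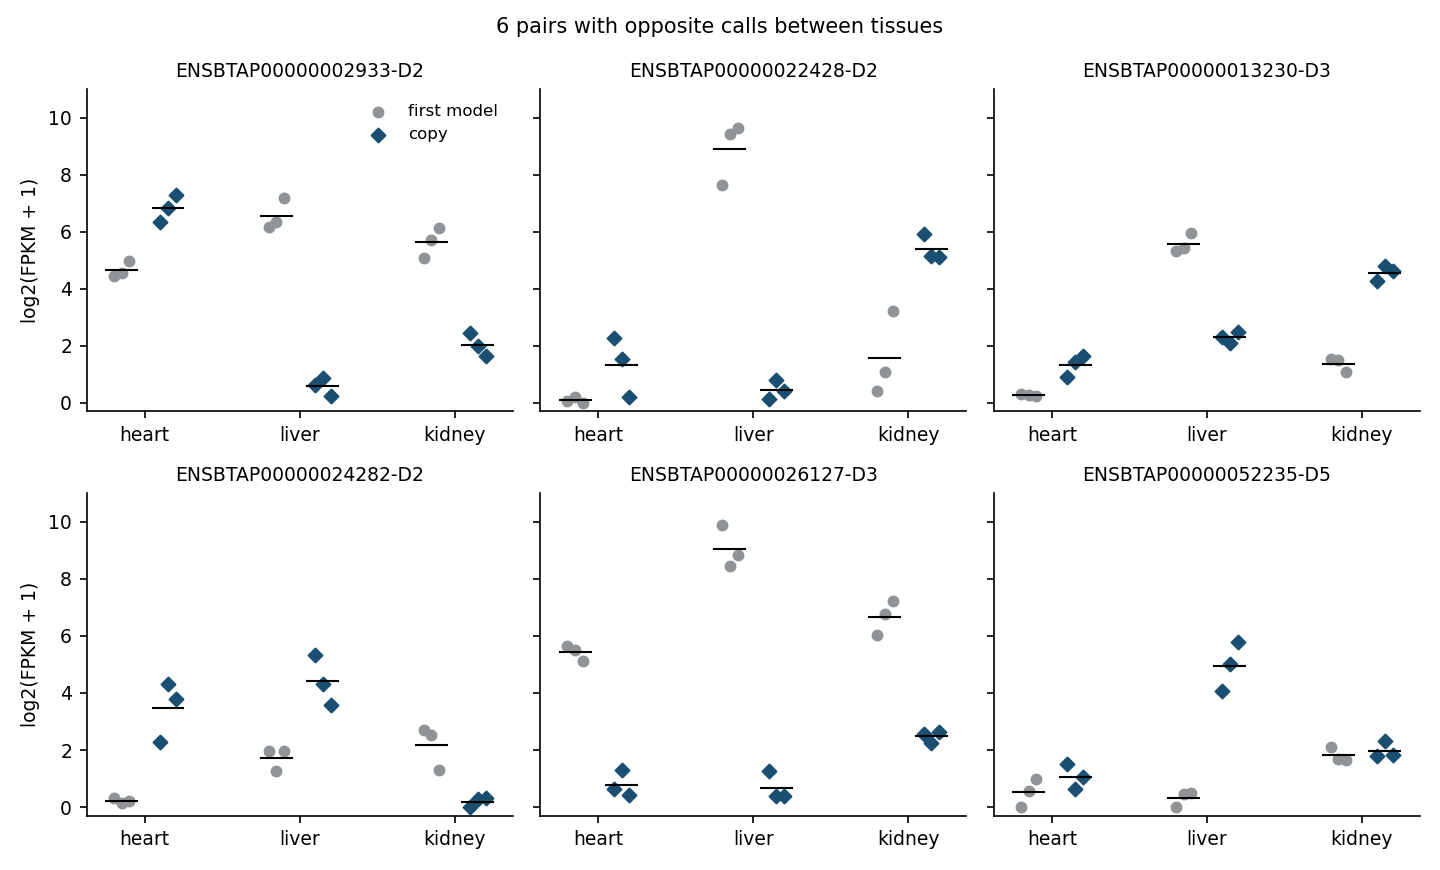
Level of copy (diamonds) and first model (circles) as log2(FPKM + 1) (vertical axis) in the 3 libraries of each tissue, for the 6 pairs with opposite calls and the largest smaller log2 difference, with black lines at the mean. In the upper middle panel the first model is at 200 to 785 FPKM in liver, where its copy GOAT_ENSBTAP00000022428-D2 is at 0.0971 to 0.749.

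The sixth pair had identical proteins. GOAT_ENSBTAP00000052235-D5 and its first model, both of 103 residues with the histone H4 signature, lay 202680 bp apart on scaffold 1146. The copy had 15.8, 31.0 and 54.1 FPKM in liver, 1.83, 0.557 and 1.09 in heart and 2.45, 4.00 and 2.56 in kidney. The first model had 0, 0.384 and 0.424 FPKM in liver and 3.32, 2.25 and 2.17 in kidney. Liver was highest for the copy and did not overlap with the other tissues, while kidney was highest for the first model. Between liver and kidney the log2 difference was 2.97 ± 0.41 for the copy (limma adjusted p = 0.00021) and −1.50 ± 0.26 for the first model (adjusted p = 0.00094). Outside kidney the first model exceeded 0.5 FPKM in heart replicate 3 only. It was thus tested for its kidney values, a choice that favours a difference. Copy -D3, which has the same protein, had 0.407 to 1.79 FPKM in liver and 0.802 to 2.21 in kidney. The copy had 7 near identical proteins in the goat file.

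Of the 4 pairs with identical proteins and the highest copies, the remaining ones were low. GOAT_ENSP00000297012-D6, with the histone H2A signature, had 0, 0.346 and 0.340 FPKM in heart, 0.576, 0.516 and 0.576 in liver and 1.41, 1.27 and 1.49 in kidney, and its first model 0 to 1.22, 0.510 to 1.81 and 1.36 to 2.13. GOAT_ENSP00000303151-D2, with the olfactory receptor signature, was listed at 0 in all 9 libraries, as was its first model.

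Pairs with nearly identical proteins had the smallest median difference. Of the 83 pairs with both models tested, 68 had an identity. The median absolute log2 difference was 1.18 in 28 pairs under 60% identity, 1.19 in 17 pairs from 60% to 80%, 1.299 in 13 pairs from 80% to 95% and 0.716 in 10 pairs (5 first models) at 95% or more. The tissue with the highest mean was shared in 15, 13, 9 and 9 of these pairs. Some pairs at 95% or more were low, such as those of GOAT_ENSP00000297012-D6 and GOAT_ENSBTAP00000052235-D3, while GOAT_ENSBTAP00000052235-D5 was higher in liver. Differences between low values are small on the log2(FPKM + 1) scale, and the level of the pairs was not compared between the classes. Pairs share first models and reads, so these values are a description with no test.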

How the data were processed

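RNA of 9 goat libraries (strand-specific, dUTP) was analysed. According to the study's methods, reads were mapped with TopHat to the genome of each species (CHIR_1.0 for goat) and quantified with Cufflinks. The submitters' processing notes list Cufflinks 2.2.1 and, for all samples, the cattle build UMD3.1. The authors deposited log2(FPKM + 1) values, from which FPKM was recovered. Models with near identical sequence can share reads. How reads that fit several places were counted is not given in the sources used here. The deposited goat protein file gave sequence, scaffold, start, end and strand for 18215 listed models. It names no build.

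Copies were models ending in -D and a number. Members, families and named models were chosen with earlier results of these data known. The named models were the highest copies and those with the largest tissue differences, opposite calls or most copies. Others had the largest excess over or under the first model, identical proteins, or no intron beside a first model with introns. Family members, the copies of 1 identifier compared with each other and the 42 family signatures were chosen after the values were seen. Proteins were compared with blastp 2.17.0 (E-value 1e-05). A model lacked introns when its span exceeded the coding length by at most 3 bp.

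Models above 0.5 FPKM in at least 3 of 9 libraries entered a linear model with a mean per tissue for log2(FPKM + 1) values (limma 3.58.1, R 4.3.3), with eBayes with trend and Benjamini-Hochberg adjustment over 13634 models within each contrast at 0.05. Fold changes on this scale understate changes of low models. On simulated data for heart minus liver, 84% of 200 models changed by 2 on the log2 scale were recovered and 7.69% of calls were false. The simulated noise was independent and only these 200 models changed, whereas 49.2% to 65% of models were called in the data. These rates therefore need not hold for the data. Shares and medians were compared by 2-sided exact permutation tests (scipy 1.17.1, Python 3.11.15). Same-numbered goat libraries deviated together over models (r = 0.146 to 0.472 in all 9 pairs, and at most 0.134 for other pairs), so replicate numbers were taken to pair the samples. The pairing comes from this check, since the labels name no animal. The main fit and the permutation tests did not use the pairing, and only the replicate block did. Alternatives were another pseudocount, filters, scalings, a minimum change, the replicate block and leaving out each library. Cattle and sheep tables hold no copies and were not used. Gene lists and marker checks by name, and matches to named proteins, were planned and could not be made without names. Sequences of the models are not printed, since no reference sequence of goat was used here.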

Additional observations from a re-analysis of the deposited data

Results flagged for a closer look

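In 7 of the pairs described every library of one tissue had the copy above its first model and every library of another tissue had it below. Values are mean log2(FPKM + 1) differences of copy minus first model over 3 libraries, and the difference between tissues was not tested. For GOAT_ENSBTAP00000002933-D2 it was 2.16 in heart, −5.97 in liver and −3.60 in kidney. For GOAT_ENSBTAP00000022428-D2 it was 1.25 in heart, 3.82 in kidney and −8.44 in liver. For GOAT_ENSBTAP00000013230-D3, with the cytochrome P450 signature, it was 1.04 in heart, 3.19 in kidney and −3.27 in liver. For GOAT_ENSBTAP00000024282-D2 it was 3.24 in heart, 2.67 in liver and −1.98 in kidney. For GOAT_ENSBTAP00000052235-D3, a histone H4 copy with a protein identical to that of its first model, it was 0.51 in liver and −0.48 in kidney. For GOAT_ENSBTAP00000013230-D2 it was 1.59 in heart, 3.51 in kidney and −0.94 in liver. For GOAT_ENSP00000400651-D2 it was 0.56 in heart, −1.33 in liver and −0.95 in kidney. Over all 130 pairs compared, 19 crossed in this way.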

How the results depend on the processing

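With the study's filter (above 0.5 FPKM in over 80% of libraries) the copies called fell to 87 between heart and liver, 120 between heart and kidney and 119 between liver and kidney, and the pairs with opposite calls to 5, since fewer models are tested. The share of copies with expression was 25.3%, 26.8% and 31.9% in heart, liver and kidney at a level of 0.1 FPKM and 16.1%, 17.8% and 23.2% at 1 FPKM, and 22.3% in liver with median ratio scaling. The copies' share of summed FPKM was 1.75% in heart and 2.03% in kidney without the most abundant copy, and 3.52% and 3.11% without the 10 highest other models in the total. The median log2 difference within pairs was −0.63 in liver and −0.59 in kidney with a pseudocount of 0.1, 0 in liver and 0 in kidney over all pairs with a value above 0, −0.11 in heart and −0.53 in liver over pairs with both models tested, and −0.26 in kidney with the first copy only. Pairs with the copy above in all 9 libraries numbered 7, and those with the copy below 22, when both models had to be tested.

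Leaving out 1 library at a time gave 137 to 162, 209 to 244 and 236 to 271 copies called in the 3 comparisons in the same order and 9 to 12 opposite pairs. Shares with expression were 19.1% to 19.7% in heart, 20.8% to 21.6% in liver and 25.3% to 26.6% in kidney, and shares of summed FPKM 2.70% to 2.96%, 3.53% to 4.12% and 2.63% to 2.89%. Median differences were 0 to 0 in heart, −0.35 to −0.26 in liver and −0.34 to −0.30 in kidney, and the copy was above in 13 to 15 and below in 29 to 32 pairs. With the replicate block, which uses the pairing of libraries, 187, 251 and 287 copies were called and 14 pairs had opposite calls. No background over all models is given for the numbers of copies called under the alternatives in this section. Calls that the block changed for named models are given beside their values, and it changed no other call whose value is printed. It also changed 1 call each, in comparisons not printed, of the first models GOAT_ENSBTAP00000022428 and GOAT_ENSP00000297012 and of the copies GOAT_ENSBTAP00000052235-D3 and GOAT_ENSP00000367345-D21. Depth is unknown, so values near 0 have no counting error.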

Other observations

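Some copies were listed at 0 in 1 replicate of a tissue while another replicate of that tissue exceeded 10 FPKM, which occurred in 4 cases. GOAT_ENSBTAP00000052290-D2 was listed at 0 in heart replicate 1 beside 5.32 and 10.1 FPKM in the other heart libraries, and at 0 in kidney replicate 1 beside 25.9 and 35.2. GOAT_ENSP00000252951-D2 was listed at 0 in liver replicate 2 beside 0.259 and 14.97 FPKM. GOAT_ENSP00000378118-D2 was listed at 0 in liver replicate 1 beside 0.899 and 27.8 FPKM. Whether these zeros are failed estimates was not tested.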
